A study of Mus musculus with 14 samples.

Results

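The Myc and Pvt1 locus was taken as the SOX10 ChIP regions that overlap the 3 Mb of mouse chromosome 15 from 60.8 to 63.8 Mb (build mm9). The stretch was set by position, without a cut on the signal, but with earlier results of these data known. It held 40 of the 533 regions of chromosome 15 and of the 7929 regions of the deposited list. The list comes from PY230 tumors, which form after transplantation of PY230 mouse mammary tumor cells into syngeneic adult C57BL6J mice. The labels call the tumors FACS isolated, while the series design calls them bulk. The ChIP group consists of 2 samples of cells with SOX10 fused to an AVI tag and with BirA, the ligase that puts biotin on that tag. The other groups of this experiment are 1 sample of control cells, taken through the same streptavidin pull-down, and 1 input sample. Whether the control cells carried BirA alone, the tag alone or neither is not stated in the labels, and the level of the tagged protein relative to the cells' own SOX10 is not given either. The list is a single result for both ChIP samples together against the control. No value therefore has a replicate error, and no test between groups of samples was possible.

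Myc encodes a basic helix-loop-helix leucine zipper transcription factor that drives cell growth and division and is often amplified or overexpressed in breast cancer. Pvt1 is a long non-coding RNA gene next to Myc that is often gained together with it in human tumors, and its human counterpart has enhancers that act on MYC. The gene-poor stretches on both sides are known for distant enhancers that act on Myc in single tissues. SOX10 is an HMG-box transcription factor of the neural crest and of glia that is also made in mammary progenitor cells. In the RefSeq gene order of build GRCm38.p6, 0 annotated genes lie between Myc and Pvt1, A1bg is the protein-coding gene that precedes Myc, and Gsdmc, a gasdermin gene, is the first protein-coding gene after Pvt1. That order was used for names only, because its coordinates belong to another build.

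SOX10 ChIP regions were denser in the locus than on the rest of chromosome 15, and fewer per Mb after Pvt1 than before it, while their median signal was a little lower than on the rest of the chromosome. The 40 regions correspond to 13.3 per Mb, against 5.06 per Mb on the rest of chromosome 15, a ratio of 2.64. The length of that rest includes a gap of 12552 kb without a region, which lowers its density and raises the ratio. The locus made up 2.99% of the chromosome's length and held 7.50% of its regions. The median signal was 0.0249 (quartiles 0.0214 and 0.0365) in the locus, against 0.0277 (quartiles 0.0208 and 0.0369) on the rest of the chromosome. The signal is the authors' value per region, its unit is not stated, and it has the form of a mean read coverage per base.

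Whole windows of 3 Mb were laid edge to edge with the locus along chromosome 15, where the first sequence was taken to start at 3 Mb. They ran from 3800001 to 102800000, and the ends of the chromosome beyond them were in no window. Among these 33 windows the locus tied for rank 3 by number of regions. The window just before it, from 57.8 Mb, was the densest with 55 regions, and the window from 48.8 Mb held 41. The window from 36.8 Mb also held 40, and the median window held 13. The windows from 12.8, 15.8, 18.8 and 21.8 Mb held 0 regions and count among those below the locus. On all autosomes together, 7 of the other 784 such windows held more regions than the locus and 2 held the same number. By median signal the locus came only to rank 17 of the 27 windows with at least 5 regions, whose medians ranged from 0.0182 to 0.0375. Among regions of 10 or more read equivalents, its median of 0.0274 lay below those of all 14 other windows with at least 5 such regions. Read equivalents, described further on, scale with signal times width, so wide regions pass this cut at a lower signal. The cut was chosen after the data were seen. Among regions under 1500 bp the median of the locus, 0.0252, exceeded those of 40% of 25 other windows.

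**Figure D1:**
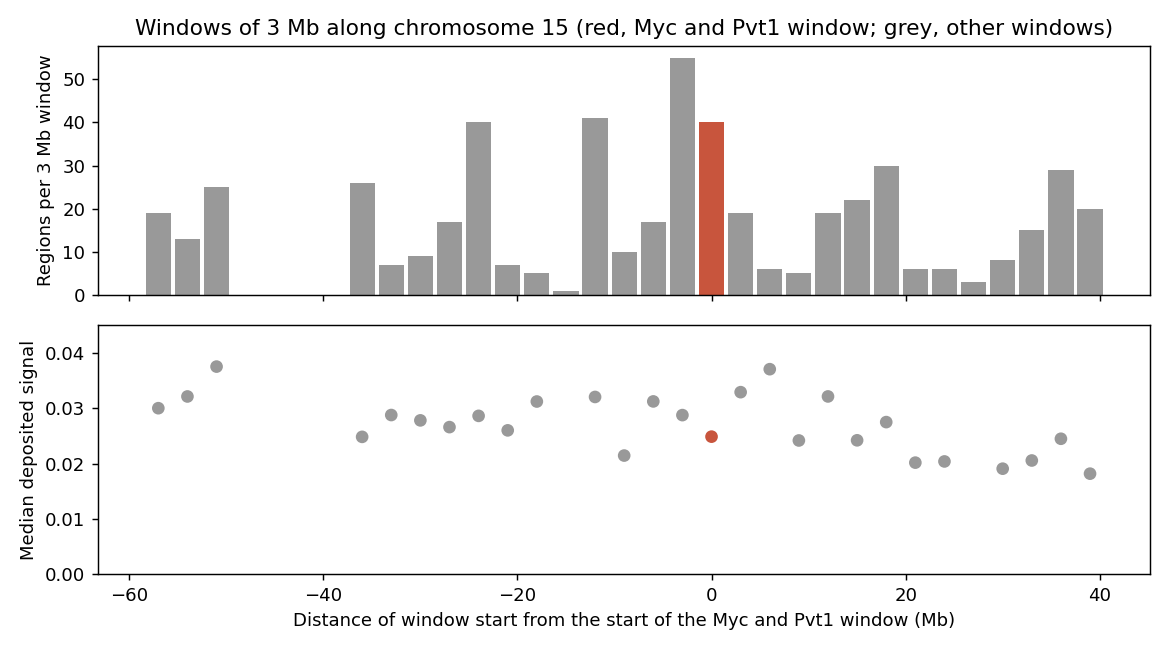
Number of regions (top) and median deposited signal (bottom) in windows of 3 Mb along chromosome 15, with the start of each window given relative to the start of the Myc and Pvt1 window. The Myc and Pvt1 window (red) has 40 regions, against a median of 13 over the 33 windows, while its median signal of 0.0249 lies among those of the grey windows; medians are drawn only for windows with at least 5 regions.

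The locus was divided at the Myc position of 61.82 Mb, which is known here to the nearest 10 kb. The 0.3 Mb after that position, to 62.12 Mb, stood for Myc and Pvt1, since mm9 gene borders were not used here. Before Myc, 22 regions lay on 1.02 Mb, or 21.6 per Mb. The Myc and Pvt1 segment held 9 regions, or 30.0 per Mb. The 1.68 Mb after it also held 9 regions, or 5.36 per Mb, close to the density on the rest of the chromosome. The density was thus 4.03 times as high before Myc, and 5.60 times as high in the Myc and Pvt1 segment, as after Pvt1. These ratios depended on how regions and borders were counted. With runs counted once they were 2.20 and 3.11, and with 0.2 Mb in place of 0.3 Mb for the segment they were 2.74 and 2.54. Among the stronger 50% of the list they were 11.5 and 33.6, with a single region left after Pvt1. Regions covered 2.46% of the bases before Myc, 2.61% of the Myc and Pvt1 segment and 0.419% of the stretch after it. In consecutive bins of 0.5 Mb from 60.8 Mb the numbers of regions were 9, 12, 12, 4, 2 and 1, so the last 1 Mb of the locus held 3 regions. The bin just past the locus, from 63.8 Mb, held 14 regions, and the bin just before it, from 60.3 Mb, held 5.

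**Figure D2:**
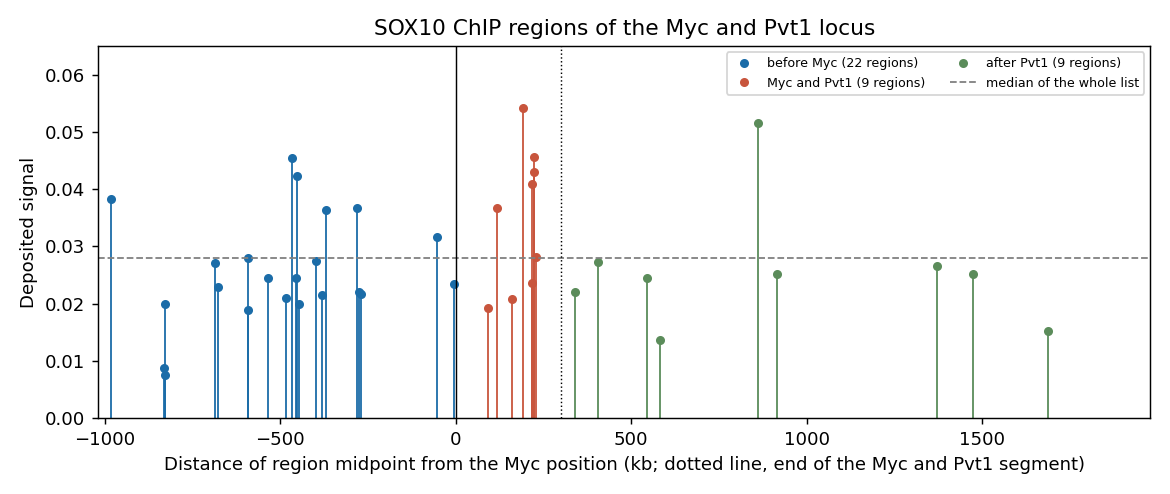
Deposited signal of each of the 40 regions against the distance of its midpoint from the Myc position (solid line at 0), in kb; the dotted line marks the end of the Myc and Pvt1 segment and the dashed line the median of the whole list. The 31 regions before the dotted line and the 9 beyond it lie in stretches of 1.32 and 1.68 Mb, and the tallest, at 0.0542, lies in the Myc and Pvt1 segment.

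The nearest region on the side before Myc, chr15:61814560-61816099, ended 3.90 kb before the Myc position. It was 1540 bp wide and had a signal of 0.0235, rank 25 of the 40. Because the Myc position is rounded, these distances do not show whether the region lies at the Myc promoter, before it or at the gene's start. The next region on that side, chr15:61767130-61767374, was the narrowest of the locus at 245 bp and had a signal of 0.0316. From the region nearest to Myc onward no other followed for 94.3 kb, and the first one beyond Myc, chr15:61910445-61911711, began 90.4 kb past the Myc position with a signal of 0.0193. A gap of this width is common, since 33.0% of the gaps on the rest of chromosome 15 were at least as wide.

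In the Myc and Pvt1 segment the regions had the highest median signal of the 3 segments, 0.0367 (range 0.0193 to 0.0542, n = 9), against 0.0240 before Myc (range 0.00760 to 0.0454, n = 22) and 0.0252 after Pvt1 (range 0.0137 to 0.0515, n = 9). The ranges overlap and the difference was described only, for the 0.3 Mb border alone. With 0.2 Mb in its place the segment held 4 regions, with signals of 0.0193, 0.0367, 0.0208 and 0.0542. The run described below, which has 3 of the stronger regions, then fell beyond the border. The region with the highest signal of the whole locus lay in the segment, chr15:62011443-62011767, a narrow region of 325 bp. Its signal was 0.0542, rank 20 on chromosome 15 and 447 in the list, but it had only 6.81 read equivalents, below the locus median of 9.21. The other regions outside the run described next were chr15:61937979-61938662 with 0.0367 and chr15:61980574-61981017 with 0.0208, besides the first one past Myc. Among 334 windows of 0.3 Mb along chromosome 15 on the grid of this segment, it tied with 2 others for rank 10 by number of regions. The median such window held 0.5 regions and the densest 16, and 167 held 0.

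A tight run of 5 regions lay toward the far end of this segment, from chr15:62035615-62036303 to chr15:62048320-62048870, within 13.3 kb. The 3 regions in its middle were the strong ones. They were chr15:62037686-62038693 with a signal of 0.0410, chr15:62040960-62042428 with 0.0431 and chr15:62043271-62044654 with 0.0457, and they held ranks 7, 5 and 3 in the locus. The outer regions of the run had 0.0236 and 0.0281. The gaps inside the run were 1.38, 2.27, 0.842 and 3.67 kb, and whether regions this close are separate sites cannot be read from the list. With a run defined by gaps under 10 kb, 4 of the 95 runs on chromosome 15 had more regions and 1 other had 5. On the whole list 29 of 1225 runs had more than 5 regions, and 26 others had 5.

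Before Myc the regions came in more runs, with lower signals. The 22 regions formed 12 units, 6 of them runs of at least 2, and 16 of the regions were in runs. The run of 4 regions from 61353879 to 61372980, over 19.1 kb, contained the strongest region of this stretch, chr15:61353879-61355544 with a signal of 0.0454. It also contained chr15:61366965-61368271 with 0.0423. Next in this stretch came chr15:60836162-60836740 with 0.0383, chr15:61539398-61540057 with 0.0367 and chr15:61449932-61452895 with 0.0364. The last of these was the widest region of the locus at 2964 bp. A run of 3 regions from 60989184 to 60991674 held the weakest regions of the locus, with 0.00879 and 0.00760, and another one with 0.0199. Another run of 3 began at 61539398 and was followed by 217 kb without a region, the widest gap before Myc.

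After Pvt1 the 9 regions stood alone, with 0 in runs. One of them stood out by signal, chr15:62680489-62681293 with 0.0515, the second highest value of the locus and rank 27 on chromosome 15. The others lay at or below 0.0273, the value of chr15:62223846-62224849. Chr15:63191649-63192618 had 0.0266, while chr15:62734611-62735446 and chr15:63293681-63294193 both had 0.0252. The widest region here, chr15:63506775-63507794, spanned 1020 bp and had a signal of 0.0152. Gaps of 456 kb, from 62735446 to 63191649, and of 279 kb were the widest between neighbouring regions of the locus, and 55 of the 532 gaps on chromosome 15 were wider than the first. The last 292 kb of the locus, after 63507794, held no region either.

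**Figure D3:**
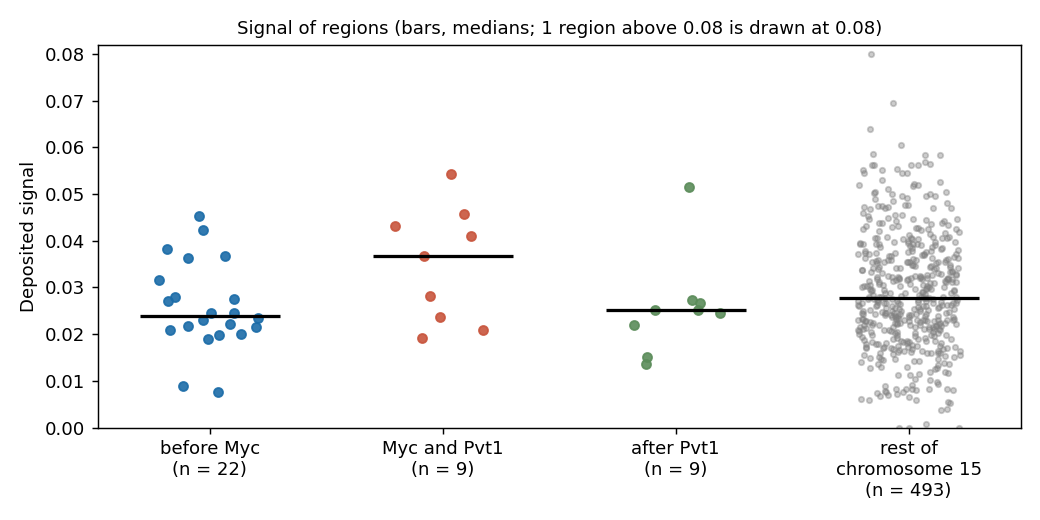
Deposited signal of single regions in the 3 segments of the locus and on the rest of chromosome 15, with the median of each group as a bar. The median is 0.0367 in the Myc and Pvt1 segment, 0.0240 before Myc, 0.0252 after Pvt1 and 0.0277 on the rest of the chromosome, and the values of all groups overlap.

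Spacing showed the same contrast between the sides of the locus. The median gap between neighbours was 18.1 kb before Myc (n = 21 gaps), 13.8 kb in the Myc and Pvt1 segment (n = 8) and 120 kb after Pvt1 (n = 8). The smallest gap after Pvt1 was 35.1 kb, whereas 10 of 21 gaps before Myc and 4 of 8 in the Myc and Pvt1 segment were under 10 kb. Over the whole locus 14 of 39 gaps (35.9%, Wilson 95% interval 22.7 to 51.6) were under 10 kb, against 27.1% of 491 gaps on the rest of the chromosome, which lies inside that interval. The median gap was 35.1 kb in the locus, against 38.2 kb on the rest of the chromosome. The interval covers counting error only and takes neighbouring gaps as independent, which they are not.

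**Figure D4:**
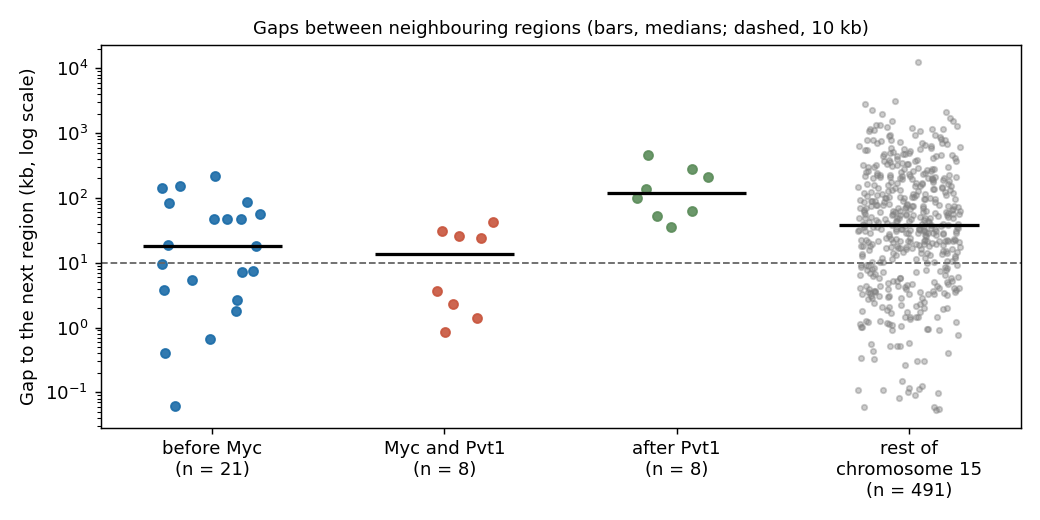
Gap from the end of each region to the start of the next, in kb on a log scale, within the 3 segments and on the rest of chromosome 15, with medians as bars and 10 kb as a dashed line. The gaps after Pvt1 all lie above 10 kb with a median of 120 kb, while before Myc and in the Myc and Pvt1 segment the medians are 18.1 and 13.8 kb.

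In the locus 21 of the 40 regions (52.5%) belonged to runs, against 38.1% of the whole list and 44.8% on the rest of chromosome 15. Of the 40 regions, 2 (5%, Wilson 95% interval 1.38 to 16.5) were among the 10.0% of the list with the highest signal. On the rest of chromosome 15 the share was 7.71%. Both background shares lie inside that interval, which takes the regions as independent, although neighbouring regions are not. The 2 regions were the strongest of the Myc and Pvt1 segment and of the stretch after it, and 0 of the 22 regions before Myc reached this top share. Signals above the list median of 0.0280 were found in 14 of the 40 regions (35%), against 50% of the list by construction. Of these 14, 7 lay before Myc (of 22), 6 in the Myc and Pvt1 segment (of 9) and 1 after Pvt1 (of 9). Regions of the locus were somewhat wider, with a median of 892.5 bp in the locus, against 729 bp on the rest of the chromosome. A width of 1500 bp or more was found in 6 of the 40 (15%), against 7.34% of the list and 12.6% of the rest of chromosome 15, and all 6 lay before Myc.

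Read depth per region was not given. A rough stand-in derived from the deposited values was low in the locus, as in the whole list. Signal times width moved in whole steps across the list, and division by that step and by a read length of 54 bases gives a value in read equivalents. This is a reading of the values and not a count by the authors, and it may be net of a control. In the whole list 65 regions had a signal of 0, so the value need not be the depth behind a call. The median region of the locus had 9.21 read equivalents (range 1.00 to 41.7), against 8.11 on the rest of the chromosome and 7.50 in the whole list. Fewer than 10 were found in 24 of the 40 regions (60.0%), against 59.6% on the rest of chromosome 15 and 64.6% of the list. The weakest regions in the run at 60989184 had 1.00 and 2.00 read equivalents. The widest region, chr15:61449932-61452895, had 41.7, the strongest by signal, chr15:62011443-62011767, had 6.81, and the region nearest to Myc had 14.0. The 3 middle regions of the run in the Myc and Pvt1 segment had 16.0, 24.5 and 24.5. The sum was 267 read equivalents over 25.1 kb of regions before Myc, 107 over 7.82 kb in the Myc and Pvt1 segment and 69.6 over 7.05 kb after it. The mean signals per covered base were 0.0274, 0.0353 and 0.0255 in the same order. With so few read equivalents the order of single regions by signal is uncertain. The number of DNA copies of this stretch in the tumor cells was not measured in the list, and its part in the density was not tested.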

How the data were processed

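Chromatin of PY230 tumors was profiled by ChIPmentation, in which a transposase adds the sequencing adapters on the beads. The authors deposited a signal value for each region of 1 list for SOX10 ChIP samples 1 and 2 against the control. No source used here gives its formula, the calling threshold or the handling of duplicates. The submitters' processing notes name FastQC, Bowtie 0.12.8, SAMtools 1.3.1, MACS2 2.1.1 and build mm9. The depth per sample is unknown, and the H3K27ac groups were not analysed here.

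Members overlap 60.8 to 63.8 Mb of chromosome 15. They and the segments were chosen with earlier results of these data known. Segments were assigned by region midpoint, starts are written 1-based, and runs join regions with gaps under 10 kb. Windows of 3 Mb with fewer than 5 regions gave no median. The step of signal times width was 0.0479, and 99.9% of 7282 regions under 1500 bp with a signal above 0 came within 0.05 of a whole multiple. Of these, 39.2% were multiples of 54 steps. Python 3.11.15, pandas 2.3.3 and SciPy 1.17.1 were used. No test over regions was run, and ranks and shares are descriptions. Regions named are the 5 strongest and the widest of each segment, those nearest Myc, runs of at least 3 and the widest gaps; the narrowest region, the weakest regions and the remaining regions of the Myc and Pvt1 segment were named after their values were seen. Promoter sequences of Myc and Pvt1 were not used here.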

Additional observations from a re-analysis of the deposited data

How the results depend on the processing

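No paired analysis was possible because both ChIP samples were pooled before deposit, which also prevented leaving a sample out. Of the 33 alternatives, 18 stayed within the 95% interval of the reported value or within 1.5 times the reported count. This tally does not measure robustness. Some settings can move a value in 1 direction only, such as those that drop or join regions before counting. The intervals also take windows or regions as independent, which they are not. By number of regions the locus exceeded 90.6% of the other windows of chromosome 15, which include windows that held 0 regions. The share was 98.9% among windows of all autosomes, 96.9% with the window moved 500 kb to higher coordinates and 96.9% with runs counted once, and between 84.4% and 93.8% under the 5 others. By median signal the locus exceeded 38.5% of windows, and between 28.3% and 50% under 6 alternatives. Among regions of 10 or more read equivalents, a choice made after seeing the data, it exceeded 0% of 14 windows, at a median of 0.0274. Wide regions pass this cut at a lower signal. The share of the locus in the strongest regions was 0% for the top 5% of the list and 17.5% for the top 20%. Before Myc, 12 units were left with runs counted once, 7 regions among the stronger 50% of the list and 10 of 10 or more read equivalents. In the Myc and Pvt1 segment these numbers were 5, 6 and 3, and after Pvt1 they were 9, 1 and 3. With 0.2 Mb in place of 0.3 Mb the Myc and Pvt1 segment held 4 regions and the stretch after it 14, because the run of 5 regions then falls beyond the border. With 0.4 Mb they held 10 and 8. Where counts fell because regions were dropped or joined, and where the top share was redefined, the shift followed from the setting. The causes of the shifts in rank among windows were not tested.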
